A study of Mus musculus with 1376 samples.

Results

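The Bmp7-Dner-Adh7 fibroblasts were 54 of the 1376 single cells sequenced from mouse lung. A cell was counted among them when at least 3 of the 6 genes Bmp7, Adh7, Dner, Lamc3, Cdh22 and C1qtnf3 each reached 20 CPM (counts of the gene after scaling a cell's total to 1000000). The cells came from the lungs of ACTA2GFP:CSPG4dsRED mice, a strain named for fluorescent reporters of smooth muscle actin (Acta2) and of the proteoglycan NG2 (Cspg4), and every mouse carried both. No treatment is named, all mice are labelled with an age range of 8 to 30 weeks, and the series description speaks of adult males of 8 to 21 weeks although 1 mouse is labelled female. Cells were sorted singly into wells of 384-well plates through a gate not given in the sources used here, and were sequenced by Smart-Seq2, which copies full-length mRNA and adds no molecular identifiers. The tissue label is lung, while the extraction text names heart and a kit for skeletal muscle.

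Of all cells, 47.5% came from male mouse 1 on 2 plates, 25.6% from male mouse 2 and 26.96% from female mouse 1, each of these on 1 plate of its own, so that sex and plate cannot be told apart from mouse. The members numbered 19 in male mouse 1, 13 in male mouse 2 and 22 in female mouse 1. Their share was 2.91% in male mouse 1 (95% Clopper-Pearson interval 1.76% to 4.51%), 3.69% in male mouse 2 (1.98% to 6.23%) and 5.93% in female mouse 1 (3.75% to 8.84%). The intervals of the 3 mice overlapped, and they cover counting error only. On the 2 plates of male mouse 1 the share was 3.15% and 2.63%. The sort decides which cells were sequenced, so these are shares of sorted cells and not of lung cells. Members held between 65042 and 1074103 counts, with a median of 320441.5 counts and 5001.5 detected genes, against 226814 counts and 4316 genes in the 1322 other cells. Mitochondrial genes took a median of 1.29%, 1.30% and 0.483% of the members' counts. Here and below, values by mouse come in the order male mouse 1, then male mouse 2, then female mouse 1.

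The rule rests on genes with different jobs. Bmp7 is a secreted bone morphogenetic protein: such ligands bind paired type I and type II receptors, which phosphorylate SMAD proteins, and the Id genes are standard targets of that signal. Dner is a transmembrane protein with EGF-like repeats that has been described as a Notch ligand in the nervous system, Adh7 is a class IV alcohol dehydrogenase that can oxidise retinol, the step before retinoic acid is made, and Lamc3 is a laminin gamma chain of basement membranes. Cdh22 is a cadherin, a calcium-dependent adhesion molecule, and C1qtnf3 is a secreted protein of the C1q and TNF superfamily. In the lung, fibroblasts of the alveolar wall, of the adventitia around airways and vessels and of the airway wall differ in the matrix and signalling genes they express, and Hedgehog, Wnt, BMP and retinoid signals pass between them and the neighbouring epithelium.

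Lamc3 was the most widely shared of the 6 genes. It reached 20 CPM in 53 of the 54 members, Adh7 in 49, Bmp7 in 40, C1qtnf3 in 37, Dner in 28 and Cdh22 in 17. These counts describe the choice of cells and carry no test. By mouse, Bmp7 was at 20 CPM or more in 12 of 19, 12 of 13 and 16 of 22 members, and Dner in 8, 9 and 11. Adh7 was in all 13 members of male mouse 2 and all 22 of female mouse 1 but in 14 of the 19 of male mouse 1. A cell at the members' median depth needs 6.41 counts to reach 20 CPM and the shallowest member 1.30, so a gene missing from a single cell may have been expressed there below detection.

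Summed over the members of each mouse, Bmp7 (ENSMUSG00000008999, chr2:172868012-172940321, minus strand, GRCm38) stood at 454.9, 763 and 644.4 CPM. Adh7 (ENSMUSG00000055301, chr3:138217760-138233382, plus strand) stood at 590.9, 1304 and 917 CPM, and Dner (ENSMUSG00000036766, chr1:84369839-84696221, minus strand) at 385.2, 635.6 and 275.5 CPM. Both Bmp7 and Adh7 were lowest in male mouse 1 and highest in male mouse 2, while Dner was lowest in female mouse 1. Lamc3 (ENSMUSG00000026840, chr2:31887291-31946539, plus strand) was at 732, 939 and 907 CPM, Cdh22 (ENSMUSG00000053166, chr2:165111507-165234853, minus strand) at 151.4, 141.1 and 111.7 CPM and C1qtnf3 (ENSMUSG00000058914, chr15:10952332-10980150, plus strand) at 415.2, 889 and 479.2 CPM. Per kilobase of exon, the mean level over mice was 247.5 CPM for Adh7, 232.5 for C1qtnf3, 154.5 for Bmp7, 141.1 for Lamc3, 90.3 for Dner and 36.4 for Cdh22, and that order is one of means only, since the mice's values of neighbouring genes were not compared.

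**Figure D1:**
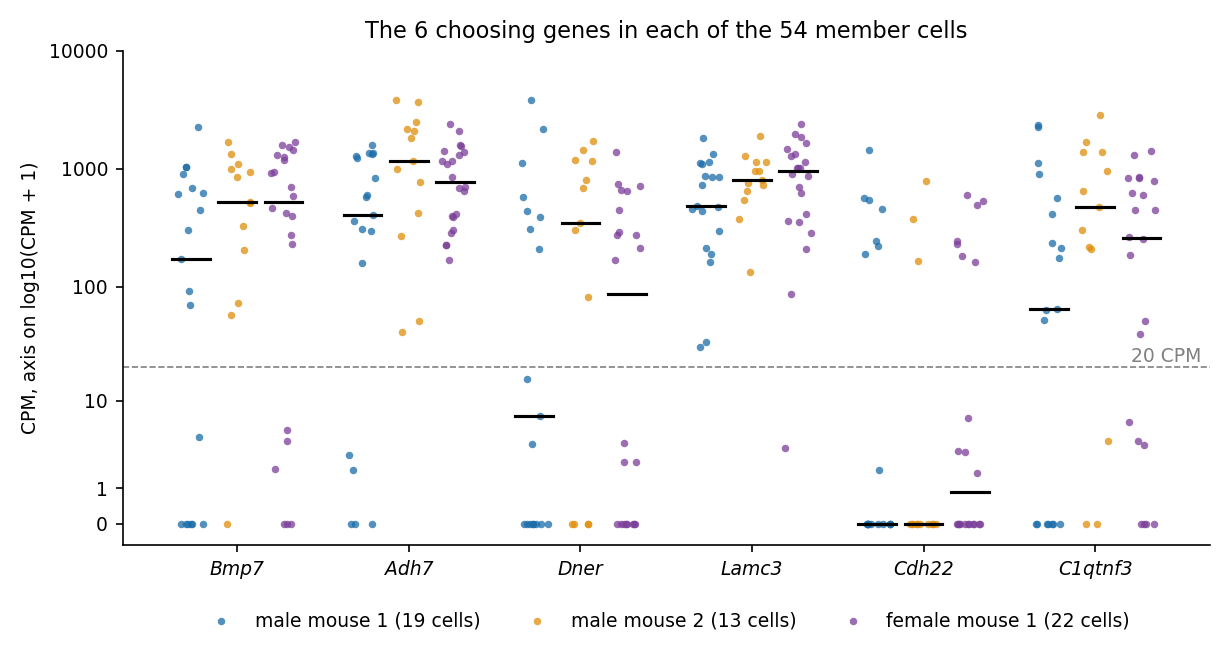
Level of the 6 rule genes in each of the 54 member cells, in CPM on a log axis of CPM plus 1, with 1 point per cell, colours for the 3 mice, a black bar at each mouse's median and a dashed line at the 20 CPM of the rule. Lamc3 lies above the line in 53 cells and Cdh22 in 17, and the other genes lie between.

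The promoters of 4 genes are shown to place the genes that the results turn on: Adh7 and C1qtnf3 because the rule uses them, and Hhip and Ptch1 because they are the Hedgehog pathway genes called below. The windows run from 250 bases before to 50 bases after the gene start in RefSeq's annotation of GRCm38.p6, 5′ to 3′ on the gene's strand, and capitals mark a match to a searched motif.
Adh7 (chr3:138217523-138217822, plus strand): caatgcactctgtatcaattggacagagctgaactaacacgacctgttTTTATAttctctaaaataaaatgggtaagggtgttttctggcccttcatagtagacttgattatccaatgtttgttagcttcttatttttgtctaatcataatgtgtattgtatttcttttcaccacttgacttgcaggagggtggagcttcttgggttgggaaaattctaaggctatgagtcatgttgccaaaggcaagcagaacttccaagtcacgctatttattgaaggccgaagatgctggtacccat
C1qtnf3 (chr15:10952082-10952381, plus strand): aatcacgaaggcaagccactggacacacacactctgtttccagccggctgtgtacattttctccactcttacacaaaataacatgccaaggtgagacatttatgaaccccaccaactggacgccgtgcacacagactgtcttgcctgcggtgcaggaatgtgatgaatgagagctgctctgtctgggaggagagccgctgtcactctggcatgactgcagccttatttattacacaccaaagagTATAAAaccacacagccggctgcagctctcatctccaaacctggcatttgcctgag
Hhip (chr8:80057959-80058258, minus strand): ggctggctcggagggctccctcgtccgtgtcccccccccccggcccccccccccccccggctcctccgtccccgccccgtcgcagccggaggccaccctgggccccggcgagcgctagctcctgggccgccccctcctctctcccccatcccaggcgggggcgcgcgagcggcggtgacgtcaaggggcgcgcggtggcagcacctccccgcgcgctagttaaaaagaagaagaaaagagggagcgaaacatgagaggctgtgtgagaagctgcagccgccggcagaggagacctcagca
Ptch1 (chr13:63565686-63565985, minus strand): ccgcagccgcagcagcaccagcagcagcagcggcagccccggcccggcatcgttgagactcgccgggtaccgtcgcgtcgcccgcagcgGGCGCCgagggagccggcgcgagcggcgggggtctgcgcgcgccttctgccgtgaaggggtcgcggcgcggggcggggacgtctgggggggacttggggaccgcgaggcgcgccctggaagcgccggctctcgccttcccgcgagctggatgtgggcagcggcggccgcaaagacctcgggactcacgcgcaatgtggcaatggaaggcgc
The motifs were searched on both strands: the GLI motif of Hedgehog signalling as GACCACCCA or TGGGTGGTC, the palindromic BMP-SMAD motif GGCGCC, and the TATA box as TATAAA or TTTATA. Adh7 held TTTATA at -202 from the start, C1qtnf3 held TATAAA at -6 and Ptch1 held GGCGCC at -161. Hhip held none of the 3. A window was found for 19 of the 25 rule and called genes looked up. The GLI letters were in none of those 19 and in 0.253% of all 32851 windows of the same length, the BMP-SMAD letters were also in Pi16, Cpxm2 and Tgfbi and in 11.9% of all windows, and the TATA letters were also in Wif1 and Ackr3 and in 13.6% of all windows. A match here is a run of letters and not a measured binding site.

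The 6 genes came in 15 combinations. The most frequent was Bmp7, Adh7, Dner, Lamc3 and C1qtnf3 together without Cdh22, in 12 cells, followed by the same set without Dner in 9 cells and without C1qtnf3 in 8 cells. All 28 members with Dner also had Adh7, and 39 of the 40 with Bmp7 had Adh7. Of the 17 members with Cdh22, all had Lamc3, 13 had C1qtnf3 and 12 had Adh7, but 7 had Bmp7 and 4 had Dner. At the edge of the rule, 12 members had exactly 3 of the 6 genes, 25 had 4, 14 had 5 and 3 had all 6. Just outside it, 25 cells had exactly 2 genes: Lamc3 in 19 of them, Cdh22 in 12, Adh7 in 8, Dner in 3 and Bmp7 in 2. The platelet-derived growth factor receptor Pdgfra, a fibroblast marker, was at 20 CPM or more in 21 of those 25 cells, and 10 of them met the rule for alveolar fibroblasts.

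The overlap of the rule genes can also be described by splitting them into sets of 3. The 45 cells with at least 2 of Bmp7, Adh7 and Dner included 44 members. Lamc3, not used in that choice, was in 43 of the 45 (95.6%) and in 4.36% of the other 1331 cells, C1qtnf3 in 29 (64.4%) and in 2.40%, and Cdh22 in 7 (15.6%) and in 2.63%. In the reverse direction, 53 cells had at least 2 of Lamc3, Cdh22 and C1qtnf3, and 40 of them were members. Adh7 was in 35 of these (66.04%) and in 2.57% of the rest, Bmp7 in 28 (52.8%) and in 1.51%, and Dner in 18 (33.96%) and in 1.06%. The genes had been proposed together from these same cells, so these shares restate that choice and check nothing.

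The label fibroblast was checked against marker lists. Of 8 general fibroblast genes, 7 were at 20 CPM or more in at least 50% of the members: the collagen genes Col1a1 and Col3a1, decorin (Dcn) and fibulin 1 (Fbln1) in all 54, Col1a2 and the procollagen processing enhancer Pcolce in 53 and Pdgfra in 52. The exception was the keratan sulfate proteoglycan lumican (Lum), in 17 members. Summed over the list, the level ran from 16036 to 24648 CPM in the members of the 3 mice, and from 4087 to 12234 CPM in all other cells. Lists of other lineages were lower in sum, but not all of their genes were near 0. The summed level was 34.3 to 163.6 CPM for 10 endothelial genes, 8.91 to 46.2 CPM for 10 leukocyte genes, 10.2 to 46.4 CPM for 10 epithelial genes, 16.7 to 73.97 CPM for 9 glial genes and 0 to 13.7 CPM for 7 mesothelial genes. Cdh5 and Tie1 of the endothelial list, Epcam and Cdh1 of the epithelial list and Sox10 of the glial list each had a mean under 1 CPM. Other genes of these lists were detected: Pecam1 reached 87.4 CPM in the members of male mouse 2, Tek reached 86.3 CPM in those of female mouse 1, Plvap was at 19.8, 21.2 and 22.8 CPM, and the secretoglobin Scgb1a1 was at 20 CPM or more in 12 members (22.2%, beside 23.6% of alveolar fibroblasts). At least 3 leukocyte genes reached 20 CPM in 3 members, and at least 3 epithelial genes did so in 1 member. The part of such RNA in the results was not tested, and no doublet caller was run.

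Among fibroblast classes the members carried genes of several lists. The adventitial list of 12 genes summed to 4609 to 8016 CPM in the members, 2577 to 3435 CPM in the alveolar fibroblasts and 809 to 2177 CPM in all other cells, so the ranges did not overlap. Peptidase inhibitor 16 (Pi16), a marker of adventitial fibroblasts, was in 36 members, the stem cell antigen Cd34 in 50 and Ly6a in 32. Other genes of that list ran the other way against the alveolar fibroblasts: Pcolce2 was lower in the members of every mouse (592.6, 703 and 796 CPM against 1013, 1504 and 940 CPM), and Mfap5 in those of both male mice (626.5, 622.98 and 683 CPM against 1018, 1115 and 677 CPM). The adventitial marker Dpp4, however, had 1 count in all members together and Dact2 had 0. The alveolar list of 12 genes was lower in sum, at 5839 to 9257 CPM in the members against 10020 to 13447 CPM in the alveolar fibroblasts. Some of its genes ran the other way. Adh1 (2267, 3019.9 and 1890.5 CPM against 1467, 2060.5 and 1709.5 CPM) and Gpc3 (1047, 1251 and 1268 CPM against 975, 1099 and 957 CPM) were higher in the members of every mouse. Tcf21 was higher in those of both male mice. The transcription factor Tcf21 was in 45 members and the matrix protein nephronectin (Npnt) in 29, while the Wnt ligand Wnt2 was in 2. The alveolar myofibroblast or peribronchial list of 12 genes summed to 1774 to 2429 CPM in the members. That lay above the 764 to 980 CPM of the alveolar fibroblasts and below the 3564 to 5108 CPM of all other cells. Within it Hhip was in 52 members, Aspn in 33, Tgfbi in 22 and Lgr5 in 13, while Lgr6 and Fgf18 were in 0. Of the genes of the alveolar rule itself, Col28a1 and Pla1a reached 20 CPM in no member, Upk1b and Scn3a in 3 each and Slc36a2 and Plcxd3 in 8 each, and no cell met both rules.

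Lists of contractile and wall cells gave a mixed picture. The 9 smooth muscle genes summed to 611.02 to 836 CPM in the members and to 9984 to 14853 CPM in all other cells. The 10 pericyte genes summed to 1101 to 1431 CPM in the members, above the 507.6 to 854 CPM of the alveolar fibroblasts and below the 2154 to 3965 CPM of all other cells. This sum came from Abcc9 and Kcnj8, subunits of a potassium channel, in 48 and 43 members and from the receptor Pdgfrb in 37, whereas the pericyte genes Higd1b, Cox4i2, Trpc6 and Rgs5 had means under 1 CPM. The perineurial and endoneurial list summed to 508.2 to 802 CPM in the members, 142.3 to 224.5 CPM in the alveolar fibroblasts and 202.9 to 250 CPM in all other cells. Within it the tight junction gene Cldn1 was in 41 members, the transcription factors Osr2 and Sox9 in 18 and 8, and Lypd2 had 0 counts. Slc2a1 was in 16.7% of members and 33.7% of alveolar fibroblasts and Etv1 in 7.41% and 30.3%, while Itgb4 and Ntng1 were in 2 members each. The cells are called by their rule genes here, since markers of more than a single list were present.

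**Figure D2:**
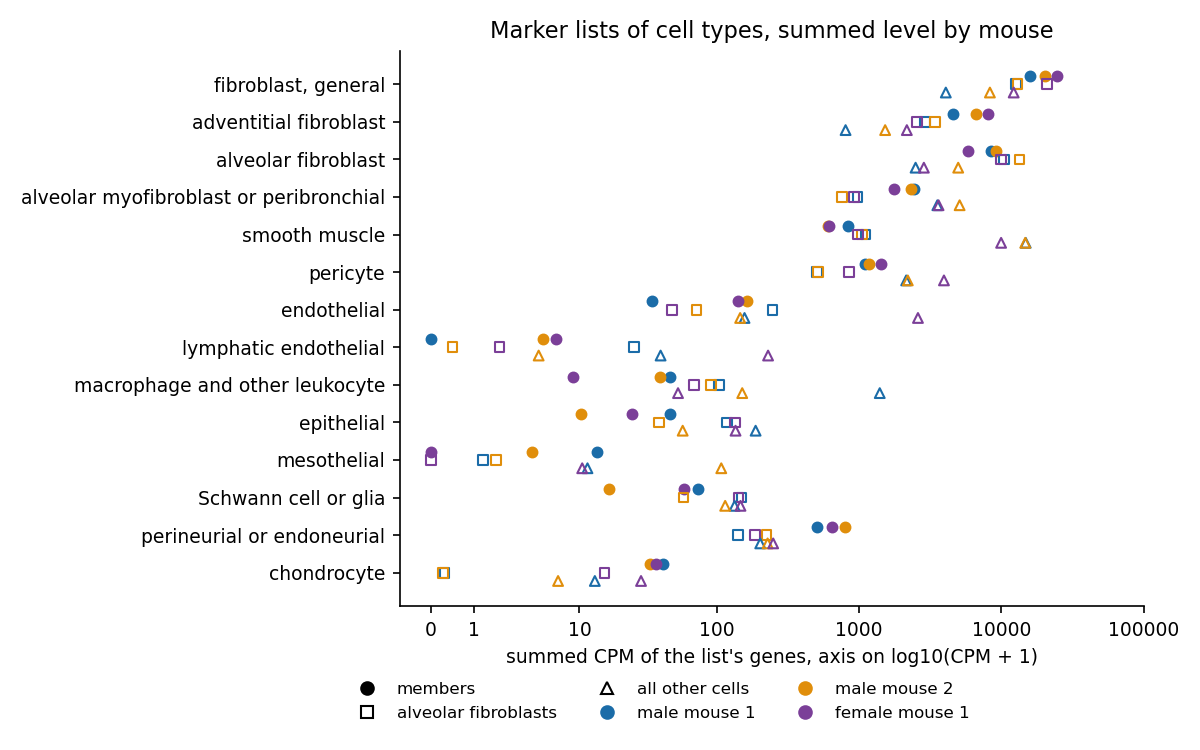
Summed level of each marker list in CPM on a log axis, with 1 point per mouse for members, alveolar fibroblasts and all other cells. Members lie above the other groups for the adventitial list (4609 to 8016 CPM) and the perineurial or endoneurial list (508.2 to 802 CPM), and below all other cells for the smooth muscle list (611.02 to 836 CPM). They also lie above both for the chondrocyte list (33.1 to 41.3 CPM), where 7 of 8 genes had means under 1 CPM in the members. For the alveolar myofibroblast or peribronchial list (1774 to 2429 CPM) they lie between the other 2 groups.

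The members were not uniform, and those with and without Cdh22 differed in several genes. This split was noticed in the data and is given without a test. The 17 members with Cdh22 at 20 CPM or more came from all mice (7, 3 and 7 cells) and had a median of 352404 counts, against 315993 in the 37 members without it (12, 10 and 15 cells). In the members without Cdh22, Bmp7 was in 33 of 37 and Dner in 24, against 7 of 17 and 4 of 17 in those with it. Pi16 was in 29 of the 37 (median 1844 CPM) and in 7 of the 17 (median 14.4 CPM). The Wnt inhibitor Wif1 was in 20 and 3 cells, the secreted carboxypeptidase-like Cpxm2 in 23 and 3, the lipocalin Apod in 30 and 8, and the neurotrophin receptor Ntrk2 in 12 and 1.

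Some genes found in most alveolar fibroblasts were in a larger share of the members with Cdh22, and others were not. The genes given were picked after their values were seen. The chemokine Cxcl14 was in all 17 of them and in 23 of the 37 others (97.8% of alveolar fibroblasts), the actin-binding Limch1 in 15 and 12 (98.9%), the BMP family ligand Bmp3 in 14 and 9 (77.5%) and Npnt in 14 and 15 (100%). The amino acid transporter Slc36a2, itself a gene of the alveolar rule, was in 8 of the 17 and in 0 of the 37. Some genes of the Cdh22 side were rare in alveolar fibroblasts: the phospholipase Gpld1 was in 16 and 13 cells (17.98%) and hemicentin 2 (Hmcn2) in 12 and 13 (5.618%). The alveolar rule genes Upk1b (85.4% of alveolar fibroblasts) and Scn3a (53.9%) were in 1 and 0 of the 17 and in 2 and 3 of the 37, and Col28a1 (51.7%) was in none. Several genes were shared by both sides: Pdgfra was in 16 of 17 and 36 of 37, Hhip in 16 and 36, Tcf21 in 14 and 31 and Dcn in all. Because the rule counts 3 of 6 genes, a cell with Cdh22 needs fewer of the rest. The part of this in the lower shares with Bmp7 and Dner was not tested. Of the other rule genes, Adh7 was in 12 of 17 and 37 of 37, Lamc3 in 17 and 36 and C1qtnf3 in 13 and 24.

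**Figure D3:**
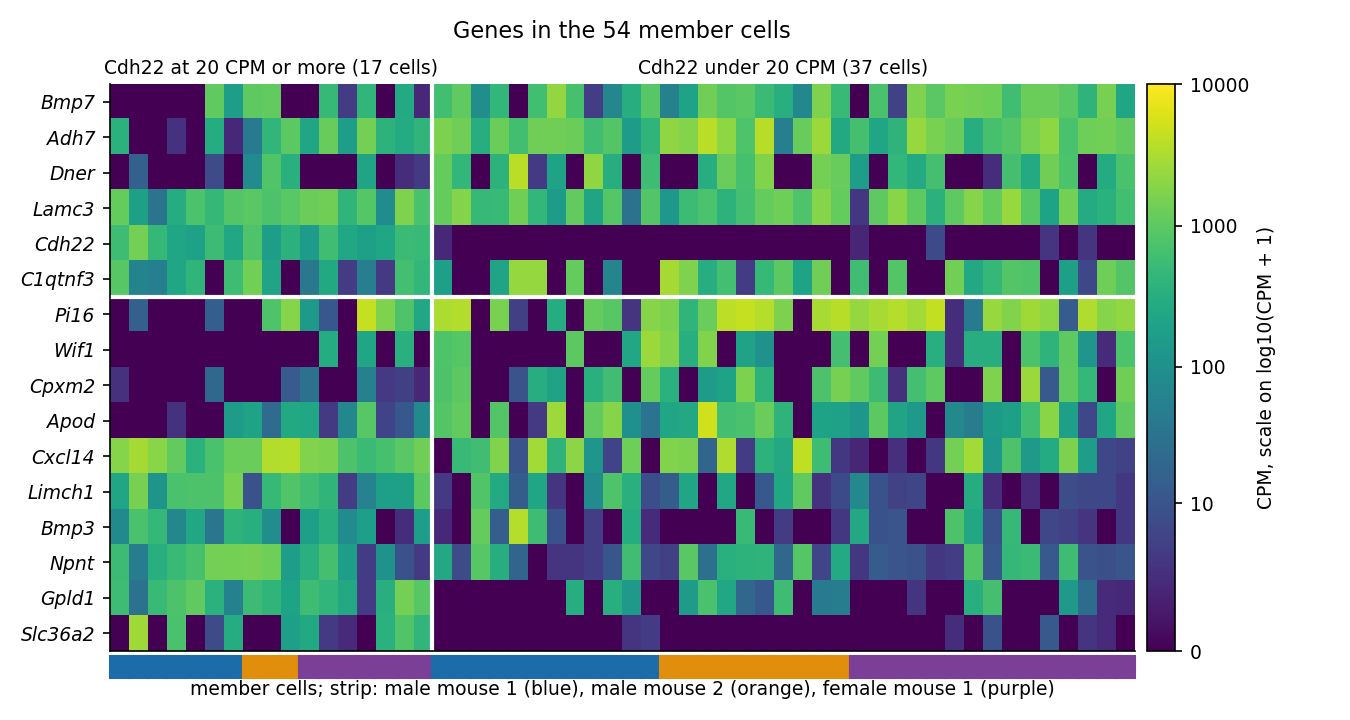
Level of selected genes (rows) in the 54 member cells (columns), as colour on a scale of log10 of CPM plus 1, with the 17 cells with Cdh22 at 20 CPM or more set apart from the 37 without and the mouse of each cell marked. Pi16 is bright in 29 of the 37 cells without Cdh22 and in 7 of the 17 with it, and Cxcl14 shows the reverse, in 23 and in all 17.

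The first comparison set the members against the 89 alveolar fibroblasts (30, 36 and 23 cells), cells with at least 3 of Col28a1, Pla1a, Upk1b, Scn3a, Slc36a2 and Plcxd3 at 20 CPM or more. Against them the members had more RNA of secreted inhibitors and binding proteins (Wif1, Pi16, Angptl7, Serpinf1, Smoc2, Dcn), of 2 tetraspanins (Tspan11, Cd9) and of the Hedgehog receptors Ptch1 and Hhip. Of 12817 genes tested outside the rules, 17 were called (0.133%), all of them higher in the members, at an adjusted p under 0.05 by edgeR's quasi-likelihood test over sums per mouse with the mouse as a block. No gene was called lower. The adjustment also took in the 12 rule genes. Of these, 5 passed the threshold through the choice of cells, which lowers the adjusted p of other genes. Ackr3 and Tgfbi (both adjusted p = 0.0463, edgeR) stood close to the threshold, and an adjustment without the rule genes was not run. By edgeR without adjustment, p was under 0.05 for 3.72% of genes higher and 4.17% lower, and DESeq2 called 2.73% higher and 3.45% lower. The 3 mice leave 2 residual degrees of freedom. Without male mouse 1 or without male mouse 2 the count of calls was 0, and without female mouse 1 it was 13, of which 9 were among the 17. Cells were chosen by expression in the same libraries, so genes that vary with the rule genes differ in part by that choice.

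Secreted regulators led the list. The Wnt inhibitory factor Wif1 (chr10:121033960-121100650) was at 381.9, 301.2 and 257.7 CPM in the members and at 0.489, 0.208 and 1.12 CPM in the alveolar fibroblasts. The lowest member value was far above the highest alveolar one, and the log2 fold change was 9.18 ± 0.65 (SE, adjusted p = 0.0131, edgeR). It came from 23 of the 54 members and from 0 of the 89 alveolar fibroblasts at 20 CPM or more. Pi16 (chr17:29317680-29330593) was at 796, 2055 and 1768 CPM against 1.14, 2.70 and 8.42 CPM, a log2 fold change of 8.94 ± 0.54 (adjusted p = 0.00856, edgeR), in 36 members and 2 alveolar fibroblasts. Both groups of mice were again clear of each other, with male mouse 1 lowest on both sides. The angiopoietin-like glycoprotein Angptl7 was at 361.1, 241.5 and 111.5 CPM against 0.326, 0.416 and 0.562 CPM (9.03 ± 0.67, adjusted p = 0.0151, edgeR). Only 5 members (2, 1 and 2) carried it at 20 CPM or more, and 1 cell gave 34.6% of its summed level. Angptl7 lies within Mtor on the opposite strand, and with the handling of strand not given their reads cannot be told apart, although Mtor stood at 42.3 CPM in the members.

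The antiangiogenic serpin Serpinf1, also called pigment epithelium-derived factor, was at 700.5, 851 and 1199.7 CPM in the members and 119.4, 75.4 and 105.02 CPM in the alveolar fibroblasts (3.28 ± 0.27, adjusted p = 0.0240, edgeR). The matricellular Smoc2 was at 1438, 3077 and 1021 CPM against 125.5, 195.2 and 111.1 CPM (3.66 ± 0.22, adjusted p = 0.00856). Dcn, a collagen-binding proteoglycan, was at 2676, 4505 and 1975 CPM against 570.2, 867 and 595.9 CPM (2.20 ± 0.19, adjusted p = 0.0251). For all 3 genes the members of every mouse lay above the alveolar fibroblasts of every mouse, and for Smoc2 and Dcn male mouse 2 was highest on both sides. Dcn was in all 54 members and 77 of the 89 alveolar fibroblasts at 20 CPM or more, so the change was one of level, whereas Serpinf1 was in 42 and 31 cells.

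Matrix and surface genes made up most of the other calls. Cpxm2 was at 266.8, 445.03 and 523.1 CPM against 5.06, 5.82 and 8.42 CPM, with the smallest adjusted p outside the rule genes (6.06 ± 0.30, adjusted p = 0.00478, edgeR). It overlaps the growth factor receptor gene Fgfr2 on the same strand, and the sources used here do not say how shared reads were counted. Hmcn2, a hemicentin of the extracellular matrix, was at 189.3, 266.4 and 338.6 CPM against 7.75, 3.95 and 10.6 CPM (5.30 ± 0.44). Tgfbi, a matrix protein named for its induction by TGF-beta, was at 414.3, 131.5 and 360.6 CPM against 7.75, 5.93 and 24.9 CPM (4.77 ± 0.49, adjusted p = 0.0463). Values of the 2 classes did not overlap for any of these 3 genes, but Cpxm2 was in 26 members, Hmcn2 in 25 and Tgfbi in 22, so each marked a portion of the cells. The tetraspanin Tspan11 was at 607.3, 1071 and 1259.7 CPM against 20.9, 24.4 and 112.3 CPM (4.70 ± 0.46) and was in 51 members and 17 alveolar fibroblasts. Its relative Cd9 was at 369.1, 761 and 384.97 CPM against 24.9, 14.5 and 16.6 CPM (4.79 ± 0.44), in 44 members and 8 alveolar fibroblasts.

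Faim2, an inhibitor of Fas-induced cell death best known from neurons, was at 495.1, 795 and 931 CPM against 17.3, 46.1 and 53.1 CPM (4.45 ± 0.27, adjusted p = 0.00856, edgeR) and was in 44 members. The fibrinogen-like Fgl2 was at 507.02, 629.1 and 155.3 CPM against 22.6, 33.4 and 11.6 CPM (4.25 ± 0.30) in 32 members, with female mouse 1 lowest on both sides. Ackr3, the atypical receptor that takes up the chemokine Cxcl12, was at 28.5, 101.4 and 317.5 CPM against 0, 0.624 and 2.47 CPM (7.63 ± 0.79, adjusted p = 0.0463). The members' Ackr3 values spanned an order of magnitude, and its 14 cells came as 1, 4 and 9 from the 3 mice. The leptin receptor Lepr, named here after its values were seen, was at 319.1, 358.6 and 288.3 CPM against 46.5, 51.1 and 34.3 CPM (2.98 ± 0.26, adjusted p = 0.0251).

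**Figure D4:**
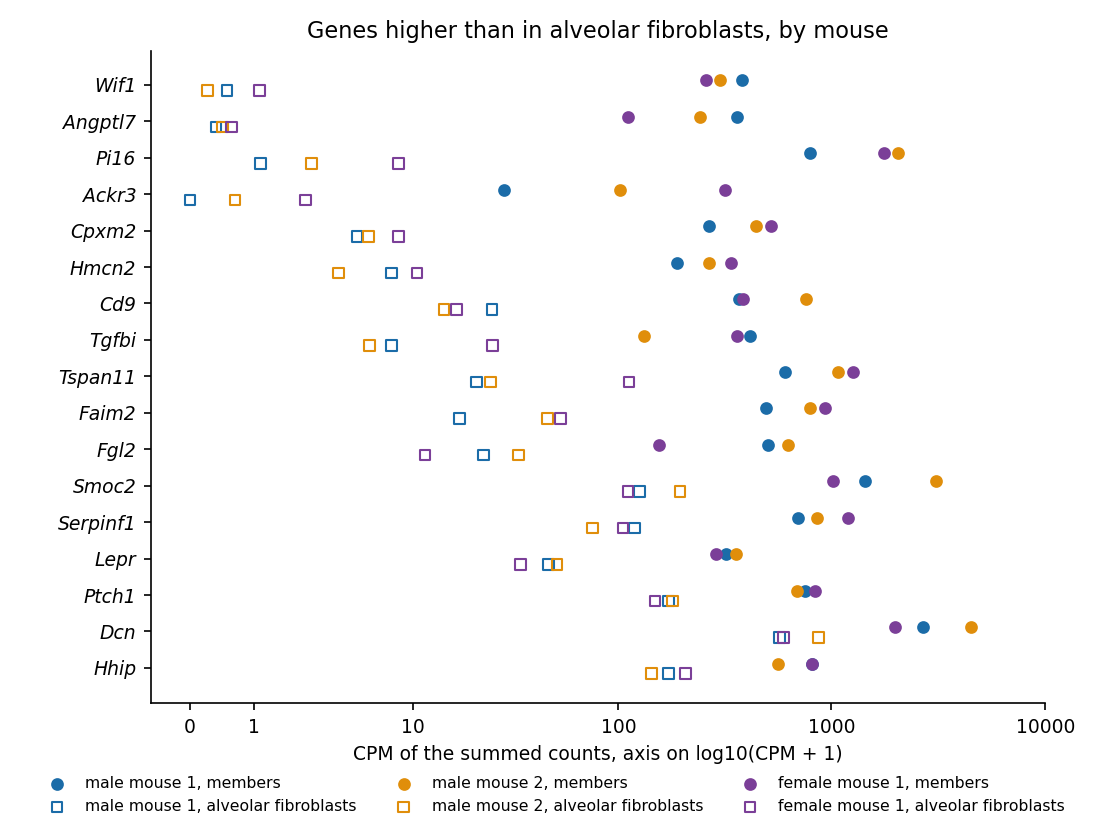
Level of the 17 called genes in the members and in the alveolar fibroblasts, in CPM of summed counts on a log axis, with 1 point per mouse. For all 17 genes the 3 member points lie to the higher side of the 3 alveolar points, from Wif1 (257.7 to 381.9 CPM against 0.208 to 1.12 CPM) to Hhip (560.8 to 809.5 CPM against 143.4 to 207.6 CPM).

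The Hedgehog list held 2 of the 17 calls, as did the list of matrix proteases and inhibitors. In the Hedgehog pathway the ligand binds Patched receptors, which frees Smoothened to activate GLI transcription factors, and Ptch1, Hhip and Gli1 are classic targets. Ptch1 (chr13:63508328-63573598) was at 756, 689.9 and 839 CPM in the members and 172.35, 179.6 and 148.9 CPM in the alveolar fibroblasts, a log2 fold change of 2.28 ± 0.20 (adjusted p = 0.0263, edgeR). The decoy receptor Hhip (chr8:79965851-80058006) was at 809, 560.8 and 809.5 CPM against 172.6, 143.4 and 207.6 CPM (2.14 ± 0.20, adjusted p = 0.0277). Each gene was in most cells of the members, 45 and 52 of 54. Gli1 was at 65.5, 79.6 and 284.7 CPM against 10.1, 25.1 and 64.1 CPM, so each mouse was higher in its members and the lowest member value lay just above the highest alveolar one, and it was not called (2.26 ± 0.40, adjusted p = 0.162). Of 11 Hedgehog genes tested, 2 rose (0.133% of all genes did), 0 fell and 9 were not called, with a median log2 fold change of 1.34 beside -0.15 over all genes. Values did not overlap in the higher direction for 4 of the 11, against 4.6% of all genes. Both calls were lost whichever mouse was left out (adjusted p by edgeR 0.0942 to 0.164 for Ptch1 and 0.0942 to 0.188 for Hhip). Gli2 (52.8, 60.8 and 233.1 CPM against 57.8, 41.6 and 59.2 CPM) and the transducer Smo (107.97, 34.2 and 137.2 CPM against 29.9, 47.01 and 74.1 CPM) overlapped.

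Against all other cells, Ptch1 rose as well (77.9, 98.02 and 172.4 CPM in those cells, log2 fold change 3.05 ± 0.26, adjusted p = 0.00513, edgeR), and so did Gli1 (9.22, 14.6 and 47.2 CPM, 2.88 ± 0.37, adjusted p = 0.0182). The Gli1 call was lost without female mouse 1 (adjusted p = 0.329, edgeR). That of Ptch1 was kept whichever mouse was left out (adjusted p by edgeR 0.00235 to 0.0148). Of 12 Hedgehog genes tested there, 2 rose and 0 fell, beside 0.975% and 0.786% of all genes. For Hhip there was no call there, at 565.4, 1085 and 971 CPM in the other cells (0.02 ± 0.30, adjusted p = 0.981). The transcription factor Foxl1, which marks Hedgehog-responsive mesenchyme in the gut, was at 98.5, 227.1 and 299.5 CPM in the members, at 24.96, 10.6 and 39.99 CPM in the alveolar fibroblasts (3.17 ± 0.56, adjusted p = 0.162) and at 14.3, 13.9 and 52.01 CPM in all other cells (3.36 ± 0.42, adjusted p = 0.0155). Foxl1 was past the threshold against all other cells, and its relative Foxf1 in neither comparison (members 207.2, 105.9 and 198.04 CPM, alveolar fibroblasts 56.1, 41.5 and 54.7 CPM, adjusted p = 0.171). Without female mouse 1, Foxl1 missed the threshold against all other cells (adjusted p = 0.0607, edgeR). An annotated gene on the same strand overlaps Foxl1, so its count is uncertain.

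Other genes of the BMP pathway were expressed in the members beside the rule gene Bmp7, and few were called. Against the alveolar fibroblasts 0 of 40 genes tested in the BMP and TGF-beta list were called by edgeR (unadjusted p under 0.05 for 9 higher and 8 lower, 6 and 7 called by DESeq2, 1 and 1 by limma), with a median log2 fold change of 0.05. Over all genes, the unadjusted p by edgeR was under 0.05 for 3.72% higher and 4.17% lower. Of 46 genes of the list tested against all other cells, 4 rose and 1 fell, beside 0.975% and 0.786% of all genes. The ligand Bmp4 was at 550.8, 522.6 and 628.6 CPM in the members and 303.3, 165.9 and 204.99 CPM in the alveolar fibroblasts (1.47 ± 0.24, adjusted p = 0.132). Against 64.4, 75.1 and 132.2 CPM in all other cells it rose (2.97 ± 0.26, adjusted p = 0.00513). Bmp4 was therefore clear of both groups in every mouse, and was called against all other cells. Nbl1, a secreted BMP antagonist of the DAN family, was at 2205, 3776 and 2942 CPM, against 1377, 1567 and 1673 CPM in the alveolar fibroblasts (1.01 ± 0.16, adjusted p = 0.132) and 226.6, 542.9 and 547.1 CPM in all other cells (3.09 ± 0.21, adjusted p = 0.00220). The type II TGF-beta receptor Tgfbr2 was at 1830.3, 1743 and 2630.0 CPM and rose against the 517.1, 728 and 934 CPM of all other cells (1.78 ± 0.18, adjusted p = 0.00763).

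The BMP receptor Bmpr1a was at 59.4, 54.3 and 48.01 CPM in the members and Bmpr2 at 39.5, 111.7 and 71.1 CPM, both overlapping the alveolar fibroblasts (94.2, 147.4 and 52.01 CPM, and 37.97 to 135.2 CPM). The Id genes are transcriptional inhibitors induced by BMP signals. Id3 was at 364.03, 233.96 and 207.3 CPM in the members and 862, 644.96 and 798 CPM in the alveolar fibroblasts (-1.46 ± 0.22, adjusted p = 0.130). Its relatives, named here after their values were seen, lay the same way. Id1 was at 0.145, 2.73 and 8.10 CPM against 32.1, 52.8 and 55.7 CPM (-4.49 ± 1.31, adjusted p = 0.427), and Id2 at 22.2, 3.76 and 14.8 CPM against 91.5, 34.8 and 52.8 CPM (-2.25 ± 0.72, adjusted p = 0.475). For all 3 the members' values lay below all alveolar values, which held for 8.44% of all genes, and no Id gene was called in this comparison. Against all other cells Id4 fell, from 122.02, 70.8 and 27.6 CPM to 0.872, 1.02 and 0.347 CPM (-6.29 ± 0.82, adjusted p = 0.0190). The Id4 call was lost without male mouse 1 (adjusted p = 0.118, edgeR) and without female mouse 1 (0.0595). Of the BMP antagonists, Chrdl1 was at 1.45, 14.003 and 4.049 CPM against 110.3, 70.8 and 97.3 CPM in the alveolar fibroblasts and Bmper at 5.96, 0 and 0.231 CPM against 39.2, 77.9 and 96.8 CPM, likewise named after their values were seen and not called (adjusted p = 0.294 and 0.423).

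Few Notch genes were called, and Dner itself is a rule gene that chose the cells. Against the alveolar fibroblasts 0 of 10 were called (unadjusted p under 0.05 for 1 higher and 0 lower by edgeR, 1 and 0 called by DESeq2, 0 and 0 by limma), with a median of -0.31. The Notch target Heyl was at 436.4, 822 and 583.8 CPM in the members, 207.6, 268.3 and 340.1 CPM in the alveolar fibroblasts (1.25 ± 0.24, adjusted p = 0.195) and 466.2, 535.9 and 775 CPM in all other cells. The receptor Notch2 was at 17.6, 15.7 and 219.7 CPM, most of it in female mouse 1, and the target Hes1 at 26.7, 55.7 and 95.7 CPM. Of 17 Notch genes tested against all other cells, 2 fell and 0 rose, where 0.786% of all genes fell and 0.975% rose. The first was the receptor Notch3, a marker of mural cells, from 297.9, 249.9 and 843 CPM to 1.89, 0.683 and 12.3 CPM (-6.75 ± 0.53, adjusted p = 0.00395, edgeR). The second was the target Hey2, with 3 counts in all members together and 60.4, 56.4 and 27.9 CPM in all other cells. Its call was lost without male mouse 1 (adjusted p = 0.128, edgeR) and without female mouse 1 (0.107).

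Besides Adh7, other genes of retinoid metabolism were expressed in the members. Against the alveolar fibroblasts 0 of 17 retinoid and alcohol metabolism genes were called (unadjusted p under 0.05 for 2 higher and 1 lower by edgeR, 1 and 0 called by DESeq2, 1 and 0 by limma), with a median of 0.08. The retinol carrier Rbp4 came nearest, at 483.2, 337.8 and 327.4 CPM in the members and 64.2, 77.2 and 69.2 CPM in the alveolar fibroblasts (2.52 ± 0.28, adjusted p = 0.0592). Its groups were far apart in every mouse although the call was missed. Adh1, the class I alcohol dehydrogenase, was at 2267, 3019.9 and 1890.5 CPM against 1467, 2060.5 and 1709.5 CPM (0.53 ± 0.16, adjusted p = 0.444). Of 22 such genes tested against all other cells, 3 rose and 1 fell, beside 0.975% and 0.786% of all genes. Rbp4 (33.1, 29.9 and 47.4 CPM there, 3.64 ± 0.32, adjusted p = 0.00513), Adh1 (221.7, 570.6 and 380.02 CPM, 2.94 ± 0.26, adjusted p = 0.00513) and Lrat, which esterifies retinol for storage (266.5, 626.4 and 190.3 CPM in members, 38.4, 137.8 and 48.97 CPM there, adjusted p = 0.0101), were higher. Aldh1a2, an enzyme that makes retinoic acid, was lower, at 1.02, 0.683 and 1.04 CPM against 116.6, 120.7 and 131.96 CPM (-6.79 ± 0.61, adjusted p = 0.00513). Its relative Aldh1a1 was at 1140.5, 961 and 412.04 CPM in the members, against 919, 1723 and 764 CPM in the alveolar fibroblasts, and the 2 classes overlapped.

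**Figure D5:**
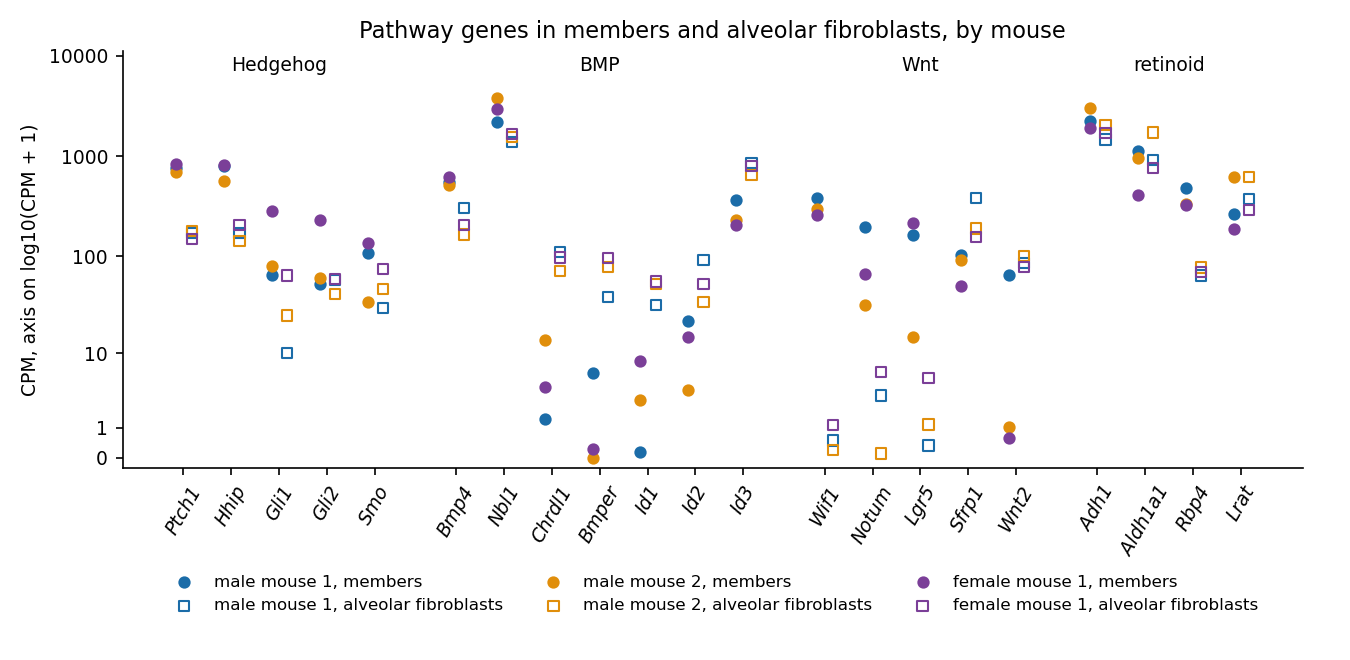
Level of selected genes of the Hedgehog, BMP, Wnt and retinoid lists in CPM of summed counts, on an axis of log10 of CPM plus 1, with 1 filled circle per mouse for the members, 1 open square per mouse for the alveolar fibroblasts and colours for the 3 mice. The member circles lie above the squares for Ptch1, Hhip, Wif1 and Rbp4 and below them for Id1, Id2 and Id3, of which Ptch1, Hhip and Wif1 were called.

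For laminins and the basement membrane, where Lamc3 belongs, 1 of 26 genes rose against the alveolar fibroblasts (Hmcn2, above), with a median of 0.32. Over all genes 0.133% rose, with a median of -0.15. The laminin alpha chain Lama2 was at 770.3, 745 and 747 CPM in the members and 268.4, 351.4 and 341.2 CPM in the alveolar fibroblasts (1.34 ± 0.19, adjusted p = 0.114). Lama2 rose against the 118.9, 187.9 and 162.2 CPM of all other cells (2.55 ± 0.24, adjusted p = 0.00541). So did the beta chain Lamb1 (1007, 622.6 and 1130.4 CPM against 105.7, 216.5 and 359.6 CPM, adjusted p = 0.0385) and Hmcn2, 3 of 29 in all, beside 0.975% of all genes. The guidance and basement membrane protein netrin 1 (Ntn1) varied among mice, at 105.8, 11.3 and 349.4 CPM, against 2.12, 0.832 and 13.8 CPM in the alveolar fibroblasts (4.82 ± 0.56, adjusted p = 0.0646). Npnt, with values below the alveolar ones in each mouse, was at 465.03, 557.7 and 151.3 CPM against 1593, 2052 and 1572 CPM, without a call (-2.24 ± 0.37, adjusted p = 0.136).

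Of the cadherins, relatives of Cdh22, 0 of 10 were called against the alveolar fibroblasts (unadjusted p under 0.05 for 2 higher and 1 lower by edgeR, 2 and 1 called by DESeq2, 0 and 0 by limma). Cdh4 was at 51.6, 191.6 and 40.6 CPM in the members and 0.653, 1.46 and 0.899 CPM in the alveolar fibroblasts (6.36 ± 0.73, adjusted p = 0.0646), in 11 member cells. Cdh11, the cadherin of mesenchymal cells, was at 541.2, 693 and 786 CPM, beside 574.7, 605.2 and 638.6 CPM in the alveolar fibroblasts, and rose against the 69.8, 205.6 and 161.1 CPM of all other cells (2.59 ± 0.30, adjusted p = 0.0118). Cdh13 fell there, from 734, 540.02 and 384 CPM to 1.89, 2.73 and 3.12 CPM (-7.44 ± 0.46, adjusted p = 0.00210). In the family of C1qtnf3, 0 of 9 genes were called against the alveolar fibroblasts (0 and 0 also by DESeq2 and limma, and 0 and 0 at an unadjusted p under 0.05). C1qtnf7 was at 292.8, 482.3 and 295.9 CPM in the members and 370.9, 341.1 and 296.6 CPM in the alveolar fibroblasts, and C1qtnf2 at 120.9, 170.1 and 172.2 CPM against 85.5 to 111.7 CPM. The values of C1qtnf7 overlapped and those of C1qtnf2 did not.

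The matrix genes that define fibroblasts were called mostly against all other cells. Of 16 collagen genes tested against the alveolar fibroblasts 0 were called (unadjusted p under 0.05 for 4 higher and 1 lower by edgeR, 3 and 0 called by DESeq2, 0 and 0 by limma), and 7 of 18 rose against all other cells (0.975% of all genes did), among them Col1a1 (3359.8, 4248 and 6587 CPM against 882, 1686 and 3300.5 CPM, 1.67 ± 0.20, adjusted p = 0.0130). The transmembrane collagen Col23a1 was at 372.5, 143.1 and 126.4 CPM against 68.5, 64.3 and 33.6 CPM in the alveolar fibroblasts (1.93 ± 0.37, adjusted p = 0.192) and 16.8, 18.8 and 19.8 CPM in all other cells (3.60 ± 0.48, adjusted p = 0.0209). In the elastic fibre list 0 of 19 were called against the alveolar fibroblasts (8 higher and 1 lower at an unadjusted p under 0.05 by edgeR, 6 and 0 by DESeq2, 4 and 0 by limma). There Ltbp4, which guides elastin assembly, was at 1541, 1704 and 4836 CPM against 757, 944 and 2554 CPM (1.02 ± 0.13, adjusted p = 0.0782), and Fbln1 at 1923, 2206 and 2930.5 CPM against 925, 1041 and 1651 CPM (1.08 ± 0.14, adjusted p = 0.0873). Female mouse 1 was highest on both sides for both genes. Against all other cells 7 of 20 elastic fibre genes rose and 0 fell, beside 0.975% and 0.786% of all genes, with Fbln2 at 382.2, 693 and 1452 CPM against 23.6, 74.05 and 179.9 CPM (3.67 ± 0.28, adjusted p = 0.00367).

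Among small leucine-rich proteoglycans, 1 of 17 rose against the alveolar fibroblasts (Dcn), where 0.133% of all genes did. Asporin (Aspn), which binds collagen and TGF-beta, was at 281.5, 1127 and 117.5 CPM against 32.1, 29.3 and 4.38 CPM (4.47 ± 0.49, adjusted p = 0.0562), highest in male mouse 2, and it overlapped the 408.6, 740.0 and 239.6 CPM of all other cells. The Wnt list gave 1 call of 22 against the alveolar fibroblasts, Wif1, beside 0.133% of all genes. Against all other cells 2 of 31 Wnt genes rose and 1 fell, beside 0.975% and 0.786% of all genes. Those that rose were Wif1 (4.64 ± 0.39, adjusted p = 0.00488) and Dkk3, also a secreted protein of the Dickkopf family (690.0, 1152 and 1011 CPM against 397.3, 664 and 647.8 CPM, 0.999 ± 0.17, adjusted p = 0.0459). The Dkk3 call was lost whichever mouse was left out (adjusted p by edgeR 0.12 to 0.248). Its level in the members overlapped the 954, 1036 and 873 CPM of the alveolar fibroblasts. The R-spondin receptor Lgr6 fell against all other cells, to 0.436, 0.683 and 2.43 CPM from 130.3, 160.1 and 159.3 CPM (-6.93 ± 0.71, adjusted p = 0.00746). In the complement list 8 of 16 rose against all other cells (0.975% of all genes did) and the chaperone clusterin (Clu) fell, with a list median of 1.47 beside -0.51 over all genes in that comparison. Against the alveolar fibroblasts 0 of 14 complement genes were called (unadjusted p under 0.05 for 4 higher and 2 lower by edgeR, 2 and 3 called by DESeq2, 0 and 0 by limma), with a median of 0.14. There C3, named after its values were seen, was at 656, 1477 and 1241 CPM in the members and 1768, 1975 and 2329 CPM in the alveolar fibroblasts, lower without overlap (adjusted p = 0.348). Against all other cells the complement inhibitor Serping1 (3104, 4017 and 2734 CPM against 971, 1744 and 1276 CPM, 1.58 ± 0.17) was among the genes that rose. Clu went from 1216, 1290.4 and 759 CPM to 9.59, 30.7 and 69.3 CPM (-5.01 ± 0.73, adjusted p = 0.0271).

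Growth factor receptors, transcription factors and lipid genes had no call against the alveolar fibroblasts. These belong to the 14 of 20 lists without a call. Among them edgeR gave an unadjusted p under 0.05 for 57 higher and 32 lower, DESeq2 called 44 and 26 and limma 8 and 4. By the same edgeR measure, 7 of 34 genes for growth factors and receptors were higher and 2 lower. For transcription factors it was 9 and 5 of 42, and for lipid genes 4 and 3 of 17. Each of these shares was above that of all genes, 3.72% higher and 4.17% lower, so the missing calls do not mean unchanged lists. The transcription factor Twist2, known from dermal and other mesenchyme, came nearest, at 36.6, 79.2 and 121.6 CPM in the members and 0.0816, 0.104 and 0.562 CPM in the alveolar fibroblasts (8.52 ± 0.91, adjusted p = 0.0507). The insulin-like growth factor binding protein Igfbp6 was at 1361, 1842 and 1539.9 CPM against 702, 908 and 854 CPM (1.03 ± 0.15, adjusted p = 0.109) and rose against the 110.2, 299.3 and 217.4 CPM of all other cells (3.28 ± 0.26, adjusted p = 0.00412). Lower values were seen for lipoprotein lipase (Lpl), at 147.2, 22.9 and 31.5 CPM against 671, 491.4 and 376.4 CPM (-3.30 ± 0.48, adjusted p = 0.114). The vascular growth factor Vegfd was at 128.9, 82.3 and 72.99 CPM against 414.2, 325.2 and 225.2 CPM (-1.67 ± 0.24, adjusted p = 0.114), and the guidance cue Slit2 at 116.5, 36.2 and 95.7 CPM against 294.5, 303.4 and 348.8 CPM (-1.99 ± 0.40, adjusted p = 0.208). Each of these 3 was below the alveolar fibroblasts in every mouse, and none was called.

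The second comparison set the members against all 1322 other cells, a mixture that the sort decides and in which smooth muscle genes prevail: Myh11 was at 20 CPM or more in 1034 of the 1218 cells with none of the 6 rule genes. Of 16922 genes tested outside the rules, 1.76% were called by edgeR, 0.975% higher and 0.786% lower in the members, with a median log2 fold change of -0.51 over all genes. Without adjustment, p was under 0.05 for 5.02% of genes higher and 12.8% lower, and the mice's values did not overlap for 4.26% higher and 22.4% lower. Without female mouse 1 the share called was 0.880%, 140 of those genes were also called with all 3 mice, and 130 genes were called whichever mouse was left out. The members had more RNA of several genes above (among them Wif1, Pi16, Angptl7, Serpinf1, Smoc2, Dcn, Tspan11, Faim2 and Ptch1) and of Aqp2, Apod, Ptgfr and Aspa. They had less of contractile and mural genes. Not every gene called against the alveolar fibroblasts rose here. Hhip was not called, and Tgfbi overlapped (414.3, 131.5 and 360.6 CPM in the members against 285.3, 307.9 and 470.7 CPM in all other cells).

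Aqp2, the vasopressin-regulated water channel of the kidney collecting duct, had the largest log2 fold change of the higher genes named. It was at 89.7, 46.8 and 58.4 CPM in the members and 0.0165, 0.0156 and 0.0776 CPM in all other cells (11.22 ± 1.14, adjusted p = 0.00742, edgeR). At 20 CPM or more it was in 12 of the 54 members and in 0 of the 1322 others, with a highest cell of 852 CPM that gave 25.6% of the summed level. Of the 12 cells 11 also had Faim2, which lies 50.9 kilobases from Aqp2 on chromosome 15 and was in 44 members. Aqp2 was in 11 of the 37 members without Cdh22 and in 1 of the 17 with it. Apod, a lipid-binding lipocalin of fibroblasts and glia, was at 426.5, 513.7 and 306.3 CPM against 8.49, 35.9 and 7.61 CPM (5.21 ± 0.48, adjusted p = 0.00535). The prostaglandin F receptor Ptgfr was at 116.3, 264.4 and 174.4 CPM against 3.29, 12.7 and 11.1 CPM (4.75 ± 0.43, adjusted p = 0.00523), and Aspa, which cleaves N-acetylaspartate, at 156.4, 172.8 and 38.8 CPM against 5.003, 18.1 and 3.56 CPM (4.13 ± 0.57, adjusted p = 0.0219). None of these overlapped in any mouse. In the comparison with alveolar fibroblasts none of the 4 was called: Aqp2 (0, 0 and 0.225 CPM there, adjusted p = 0.121), Aspa (11.7, 13.8 and 0 CPM there, adjusted p = 0.311), Apod (36.5, 8.63 and 1.46 CPM there, 5.72 ± 0.87, adjusted p = 0.129) and Ptgfr (27.2, 39.2 and 10.4 CPM there, 3.05 ± 0.48, adjusted p = 0.132).

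Contractile genes were the list with the most calls, 15 of 20 lower and 0 higher than in all other cells, with a median of -3.10. Over all genes 0.786% were called lower and 0.975% higher there, with a median of -0.51. Desmin (Des) fell from 1846, 1495 and 1545 CPM to 26.3, 13.7 and 24.2 CPM (-6.03 ± 0.28, adjusted p = 0.00185, edgeR), and smooth muscle myosin heavy chain (Myh11) from 2822, 2226 and 1798 CPM to 24.995, 10.9 and 22.1 CPM (-6.66 ± 0.35, adjusted p = 0.00185). Smooth muscle actin, Acta2, the gene whose reporter the strain carries, was at 482.8, 199.5 and 197.6 CPM in the members and 4319, 5403 and 2709.6 CPM in all other cells (-3.64 ± 0.34, adjusted p = 0.00541). Against the alveolar fibroblasts 0 of 20 contractile genes were called (unadjusted p under 0.05 for 0 higher and 3 lower by edgeR, 0 and 2 called by DESeq2, 0 and 0 by limma), with Myh11 there at 15.8, 8.42 and 14.5 CPM. The endothelin receptor Ednrb fell from 495.4, 407.1 and 246.8 CPM to 4.21, 4.44 and 3.35 CPM (-6.28 ± 0.35, adjusted p = 0.00185), and the intermediate filament gene nestin (Nes) from 123.3, 67.7 and 192.8 CPM to 0.872, 0.342 and 0.694 CPM (-7.36 ± 0.64, adjusted p = 0.00513). A further 3 genes called lower had almost no reads in the members: Stac had 1 count in all, and Mrc1 and Angpt4 had 3 each, against means of 52.9, 57.9 and 71.4 CPM in all other cells.

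Outside the rule genes, Tspan11 followed the members most closely. The measure is the share of members at 20 CPM or more minus the share of all other cells, taken over all 1376 cells as a description. Tspan11 was in 51 members (94.4%) and in 8.32% of the others, a difference of 86.1 points, and in 19.1% of alveolar fibroblasts. Gm16559, which lies antisense to Adh1, was in all 54 members and 16.3% of the others. Adh1 itself stood at a mean of 2392 CPM in the members, and without the strand the 2 cannot be told apart. Next came Efemp1, a fibulin-type matrix protein (51 members, 80.1 points), Pdgfra (52 members, 79.8 points) and Faim2 (44 members, 76.3 points). Efemp1 and Pdgfra were also in 94.4% and 92.1% of the alveolar fibroblasts, whereas Faim2 was in 17.98%, so Tspan11 and Faim2 were the ones among these 5 that were rare in both reference groups.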

How the data were processed

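Read counts per gene for each cell, whole numbers and not normalized, are what the authors deposited from Smart-Seq2 libraries. Bowtie, Bowtie2, bcl2fastq, featureCounts and Subread, with the builds GRCm38 and mm10, are named in the submitters' processing notes without versions. How strand and shared reads were handled was not given in the sources used here. Reads without molecular identifiers are not independent molecules. Of 46517 Ensembl genes, 46005 took a symbol and coordinates from GENCODE M21, and the 512 others held 0.184% of all counts. CPM is a cell's count divided by its total and multiplied by 1000000. No cell was removed. Plates held 66873579 to 98841310 counts.

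Counts were summed per class and mouse. They were tested with edgeR 4.0.16 (R 4.3.3; TMM, filterByExpr, glmQLFit, glmQLFTest, mouse as a block, two-sided). P-values were adjusted by Benjamini-Hochberg over all genes of the fit, the 12 rule genes included, and called under 0.05. In each comparison 5 of those 12 passed the threshold, which lowers the adjusted p of other genes. Each SE was obtained as the fold change on the log2 scale over the root of the F statistic. Whether the mice pair the sums comes from the design, as both classes of a mouse share the animal, and the deviations of same-mouse sums correlated with r of 0.0615, 0.123 and 0.219 (alveolar fibroblasts) and 0.133, 0.155 and 0.288 (all other cells). On simulated data 59.3% of 8-fold changes and 20.3% of 4-fold changes were called against the alveolar fibroblasts, and 64.5% and 29.6% against all other cells. The changed genes were drawn from those with a mean above 20 CPM. Their spread followed the trend over genes, and no difference between mice was put in. These rates therefore need not hold for the real sums.

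The members, gene lists and tests were chosen with earlier results of these data known. Genes were named mainly by a rule. It took the 12 highest and 12 lowest called genes by log2 fold change. These needed at least 50 CPM in the higher class and the same direction in every mouse. It also took up to 3 called genes per list and direction, and up to 2 main genes per list. Not every gene it took is printed, and the list of immediate early and heat shock genes is left out. Other genes were named outside the rule, and not all of these carry a statement beside them. Genes of the cell rules stayed in the fits, and no test is reported for them. Gene lists had no set test. Alternatives used DESeq2 1.42.0, limma 3.58.1 on log2 of mean CPM plus 1, other size factors, filters, cell rules and left-out mice. Numbers of called genes are given as percentages of the genes tested where there were many.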

Additional observations from a re-analysis of the deposited data

How the results depend on the processing

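Against the alveolar fibroblasts, the share of tested genes called, 0.133% (17 genes), moved to 6.18% with DESeq2 (792 genes), 0.321% with no filter on low counts (74), 0.328% without the replicate block (42, of which 33 higher and 9 lower, 14 of them shared), 0.640% with limma giving each cell equal weight (82), 0.233% for members with 4 markers (29), 0.271% for members by 2 of Bmp7, Adh7 and Dner (34), 0.0238% for members by 2 of Lamc3, Cdh22 and C1qtnf3 (3) and 0.617% with 3 classes in the fit (93). Leaving out 1 mouse gave 0% to 0.09996% (0 to 13 genes). Against all other cells, the 1.76% called moved to 13.3% with DESeq2 (2253 genes) and 7.97% with limma (1348), and leaving out 1 mouse gave 0.880% to 1.93%. Without the replicate block 1.34% were called there (0.455% higher and 0.881% lower, beside 0.975% and 0.786%). The cause of these shifts was not tested. The other alternatives kept both numbers of calls within 1.5 times. Of single genes, Ackr3 against all other cells reversed from 2.02 to -0.358 (adjusted p = 0.935) for members by 2 of Lamc3, Cdh22 and C1qtnf3. With that choice of members, Aqp2 and Angptl7 were not called against all other cells either (adjusted p = 0.568 and 0.777, edgeR). The members' Des level was 28.9 CPM as a mean over cells beside 21.4 CPM from summed counts. The number of members was 61 at 10 CPM, 52 at 50 CPM and 42 with 4 markers. With 3 mice and 13 to 22 member cells each, a change near 2-fold was rarely called in the simulated data (3.66% against the alveolar fibroblasts). Those data held no difference between mice.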

Other observations

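Several genes outside the naming rule varied between mice or cells of the Bmp7-Dner-Adh7 fibroblasts, and they are given as values chosen after they were seen. The R-spondin receptor Lgr5 was at 162.5, 15.03 and 214.9 CPM in the members and 0.326, 1.14 and 5.28 CPM in the alveolar fibroblasts, and the Wnt deacylase Notum at 199.2, 32.1 and 66.1 CPM against 3.18, 0.104 and 6.18 CPM. Neither was called (adjusted p = 0.207 and 0.201, edgeR), and in both male mouse 2 was the lowest member value. The neurotrophin receptor Ntrk2 was at 107.7, 58.7 and 230.8 CPM against 4.65, 3.02 and 1.01 CPM (adjusted p = 0.136) and rose against the 7.66, 12.8 and 36.96 CPM of all other cells (3.14 ± 0.50, adjusted p = 0.0369). The tight junction gene Cldn1 was at 129.8, 436.8 and 279.01 CPM against 14.8, 19.03 and 36.5 CPM in the alveolar fibroblasts (3.61 ± 0.43, adjusted p = 0.0683). Lum was at 464.7, 295.4 and 106.2 CPM against 3.10, 13.1 and 9.88 CPM (5.04 ± 0.85, adjusted p = 0.147), from 17 of the 54 members.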
